A study of Rattus norvegicus with 60 samples.

Results

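The data described here are the read counts of 28 genes of cholesterol and fatty acid synthesis in rat kidney. They were picked by gene name from a deposited count table of 32545 gene rows, and 28 of 28 were found, in 29 rows. Scd (stearoyl-CoA desaturase) was matched through its synonym Scd1, and Elovl6 has 2 rows under 1 name, on opposite strands of chromosome 2, which are kept apart here as first and second row. By role, 18 members are enzymes of cholesterol synthesis, 4 sense or carry sterols, and 6 make or modify fatty acids.

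The study sequenced polyA-enriched RNA of snap-frozen kidney cortex and kidney outer medulla from Dahl salt-sensitive rats (SS) and from NOX4 knockout derivatives of that strain (NOX4). Rats of each strain were on the control diet (LS), or had been on a diet of 4% NaCl for 7 days (HS7) or for 21 days (HS21). This gives 12 groups of 5 libraries, 60 in all: SS and NOX4, each at LS, HS7 and HS21, in each tissue. All groups share the SS background, and the labels used here give no age and do not say whether the 5 replicates of a group are separate animals, so p-values measure the spread between these libraries. All SS libraries come before all NOX4 libraries in the submitters' library numbers, and strain and that order cannot be told apart.

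Cholesterol is built from acetyl-CoA through mevalonate, isoprenoid phosphates and squalene to lanosterol, which a further series of enzymes turns into cholesterol. The same acetyl-CoA, made in the cytosol from citrate by Acly or from acetate by Acss2, feeds fatty acid synthesis by Acaca and Fasn. Genes of both branches are known targets of the SREBP transcription factors, encoded by Srebf1 and Srebf2, which Insig1 holds in the endoplasmic reticulum when sterol is plentiful. In the kidney, the straight end of the proximal tubule (segment 3) lies mostly in the outer medulla and is rich in enzymes of lipid metabolism.

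Promoters are shown for 5 members on which the results turn: Acss2, Dhcr7, Tm7sf2, Hmgcs1 and Idi1, chosen after their values were seen. Each window runs from 250 bases before to 50 bases after the RefSeq start in build GRCr8, 5′ to 3′ on the gene's strand, with capitals marking ATTGG, which is CCAAT, the NF-Y motif, on the opposite strand.
Acss2, chr3:164464453-164464752, plus strand: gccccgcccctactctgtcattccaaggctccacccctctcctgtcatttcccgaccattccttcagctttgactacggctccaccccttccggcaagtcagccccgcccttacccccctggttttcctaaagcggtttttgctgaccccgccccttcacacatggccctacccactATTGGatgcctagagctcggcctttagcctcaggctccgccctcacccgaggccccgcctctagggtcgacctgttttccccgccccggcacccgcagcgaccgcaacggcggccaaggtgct
Dhcr7, chr1:208444184-208444483, plus strand: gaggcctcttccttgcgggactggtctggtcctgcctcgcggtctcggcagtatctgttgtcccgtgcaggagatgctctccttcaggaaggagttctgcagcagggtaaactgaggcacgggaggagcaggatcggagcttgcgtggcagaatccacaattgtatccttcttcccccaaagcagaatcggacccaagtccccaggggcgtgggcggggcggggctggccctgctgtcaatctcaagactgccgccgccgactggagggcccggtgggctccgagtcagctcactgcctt
Tm7sf2, chr1:212789492-212789791, minus strand: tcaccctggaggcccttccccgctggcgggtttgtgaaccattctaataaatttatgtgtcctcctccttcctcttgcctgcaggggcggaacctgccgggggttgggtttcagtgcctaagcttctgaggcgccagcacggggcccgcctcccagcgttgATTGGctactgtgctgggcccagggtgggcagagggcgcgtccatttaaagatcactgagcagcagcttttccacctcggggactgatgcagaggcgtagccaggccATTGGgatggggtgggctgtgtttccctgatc
Hmgcs1, chr2:53382054-53382353, plus strand: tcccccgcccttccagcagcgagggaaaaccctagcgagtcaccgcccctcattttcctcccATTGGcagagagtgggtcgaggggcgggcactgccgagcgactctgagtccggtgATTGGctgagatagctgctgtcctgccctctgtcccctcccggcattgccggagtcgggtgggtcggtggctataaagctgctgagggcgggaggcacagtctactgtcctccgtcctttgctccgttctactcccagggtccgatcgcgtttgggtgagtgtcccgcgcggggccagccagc
Idi1, chr17:66547475-66547774, minus strand: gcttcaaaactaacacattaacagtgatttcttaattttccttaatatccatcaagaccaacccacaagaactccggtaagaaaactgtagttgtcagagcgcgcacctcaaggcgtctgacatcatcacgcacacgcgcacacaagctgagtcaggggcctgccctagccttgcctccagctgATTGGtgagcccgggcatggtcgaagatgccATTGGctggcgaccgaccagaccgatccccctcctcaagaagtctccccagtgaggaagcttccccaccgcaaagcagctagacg

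RefSeq gave such 300-base windows for 21 of the 28 members, 22 windows in all because Srebf1 has 2. Searched on both strands, CCAAT was in 18 of 22 member windows (81.8%) and in 37.5% of all 33469 windows. GGGCGG, the Sp1 motif, was in 19 of 22 (86.4%) and in 33.1% of all. TCACNCCAC, a strict spelling of the sterol regulatory element, was in 0 of 22 and in 1.12% of all. Among the windows shown, Tm7sf2, Hmgcs1 and Idi1 hold 2 CCAAT each and Acss2 holds 1, while Dhcr7 holds 0. These are matches of letters in a fixed window and say nothing of binding.

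In the count table, whose genome build is not given in the sources used here, the genes on which the results turn most are Acss2 (ENSRNOG00000018755) on chromosome 3 from 151032952 to 151075856 on the plus strand, Dhcr7 (ENSRNOG00000020776) on chromosome 1 from 217018916 to 217034904 on the plus strand and Tm7sf2 (ENSRNOG00000020989) on chromosome 1 from 221425987 to 221431713 on the minus strand.

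Library totals ran from 11.5 M to 29.6 M counts. At 10 M counts, 49 libraries would show 16922 to 18385 genes and 11 would show 14090 to 16119. All 11 low-complexity libraries were SS at LS or HS7, 5 in cortex and 6 in outer medulla. Nox4, the targeted gene, was at 251 to 530 CPM, counts scaled per M counts of the library, in SS cortex and 54.7 to 77.7 CPM in NOX4 cortex, with no overlap. In outer medulla it ran from 6.35 to 111 CPM in SS and from 1.83 to 15.1 CPM in NOX4, and the strains overlapped. CPM here take library sizes scaled by edgeR's TMM factors.

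Per kilobase of gene length, Acss2 was the most abundant member in both tissues. Its mean was 144 CPM per kb in cortex and 183 CPM per kb in outer medulla, over 30 libraries each. Fdft1, squalene synthase, came next with 40.7 and 35.9 CPM per kb. The lowest were Scd, at 0.535 and 0.617 CPM per kb, and the rows of Elovl6, a fatty acid elongase, all at or under 0.319 CPM per kb. Both Elovl6 rows failed the filter on low counts in cortex, so 27 rows were tested there and 29 in outer medulla.

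Members were called between tissues at near the share of all genes. In the fit over all 60 libraries, 14 rows were higher in outer medulla and 8 were higher in cortex, 22 of 29 rows called at an adjusted p under 0.05. The background was 71.6% of genes (37.6% up and 34.0% down). The 14 hold both Elovl6 rows, which failed the filter in cortex and entered this fit only through outer medulla. Their direction followed from the filter and is not counted as a result. The median of the 29 rows, with both Elovl6 rows still included, was 0.25 higher in outer medulla on the log2 scale, against 0.03 over all genes. Both directions occurred along the sterol pathway, as the plot of effects by gene and role shows, and the samples hold different mixes of cells, so that fewer cells of a type and less RNA per cell cannot be told apart.

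**Figure D1:**
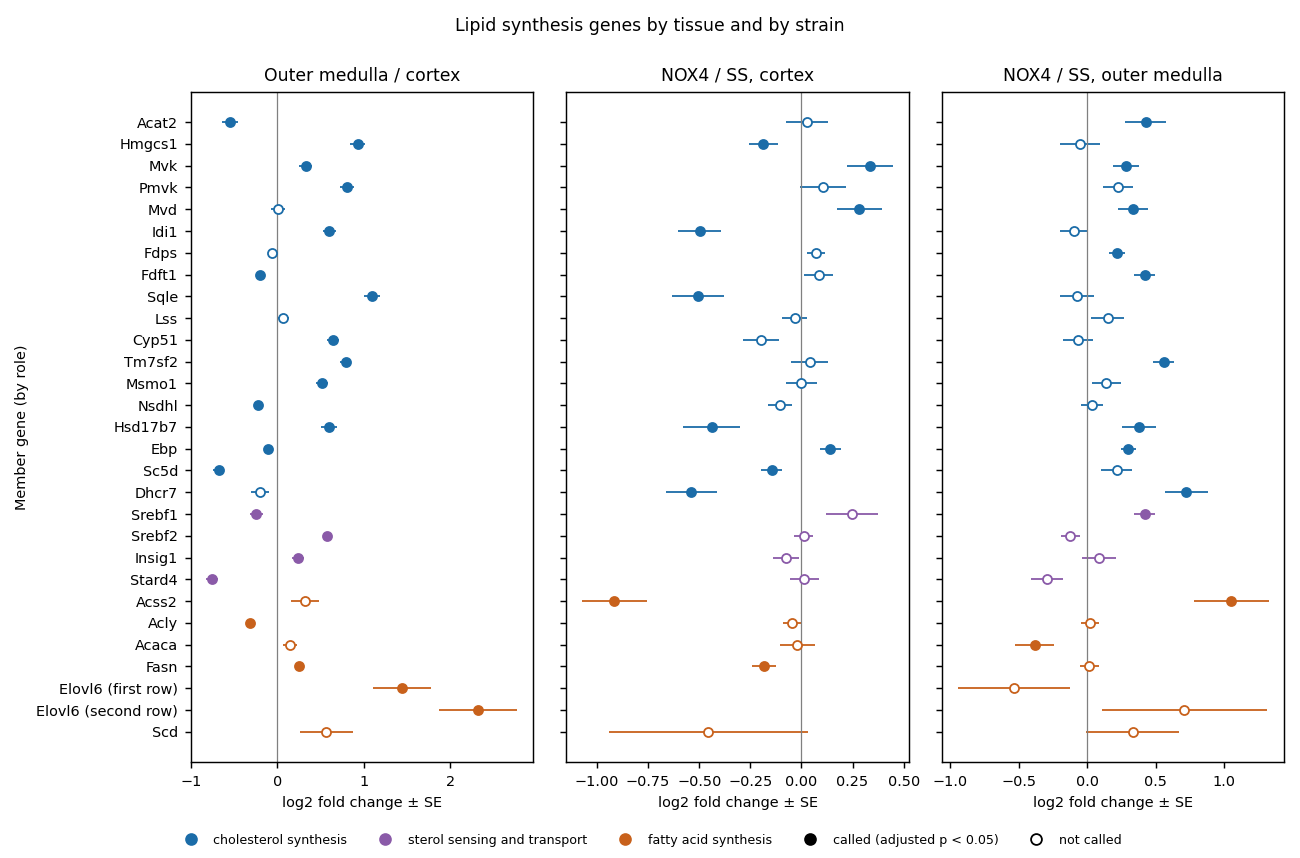
Log2 fold change (x axis, bars are 1 standard error) of each member (y axis, grouped by role) between tissues and between strains in each tissue, with filled points called at an adjusted p under 0.05. Sqle and Hmgcs1 lie near 1 in the tissue panel, and Acss2 lies below 0 for strain in cortex and above 0 for strain in outer medulla.

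The CPM given for the comparison of tissues, and the levels per kb, take the scaling factors of all 60 libraries. All other CPM take those of the 30 libraries of 1 tissue, so that the same library has somewhat different values on the 2 scales. Sqle, squalene epoxidase and a rate-limiting step of the sterol branch, had a lowest, median and highest CPM of 8.67, 18.2 and 49.1 in cortex and 22.9, 43.0 and 63.0 in outer medulla. The ranges overlapped, and the log2 difference was 1.10 ± 0.09 (SE, adjusted p = 8.67e-16). Hmgcs1, the HMG-CoA synthase that starts the mevalonate route, ran at 29.4, 44.3 and 67.1 CPM in cortex and 46.0, 86.1 and 164 CPM in outer medulla, overlapping, a log2 difference of 0.93 ± 0.08 (8.50e-15). Pmvk, phosphomevalonate kinase, was higher in outer medulla by 0.80 ± 0.08 (2.14e-13).

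Tm7sf2, a sterol reductase that acts after the lanosterol demethylase Cyp51, had 12.1, 17.9 and 26.1 CPM in cortex and 18.2, 31.9 and 46.5 CPM in outer medulla, overlapping, a log2 difference of 0.79 ± 0.06 (adjusted p = 6.22e-17). Cyp51 itself was higher by 0.64 ± 0.07 (9.41e-12). Srebf2, the SREBP best known for sterol genes, ran at 66.7, 88.0 and 105 CPM in cortex and 95.7, 133 and 184 CPM in outer medulla, 0.58 ± 0.04 higher there (3.99e-18), with a narrow overlap of the 2 ranges. The other members called higher in outer medulla lay between 0.24 and 2.32 on the log2 scale: Idi1 (isopentenyl diphosphate isomerase), Msmo1 and Hsd17b7 (both of the removal of the methyl groups of lanosterol), Mvk (mevalonate kinase), Insig1, Fasn and both Elovl6 rows. The top of that range is the second Elovl6 row, set apart above because of the filter.

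The 8 members higher in cortex came from several steps. Sc5d, a sterol desaturase close to the end of synthesis, ran at 92.6, 119 and 157 CPM in cortex and 38.0, 76.4 and 112 CPM in outer medulla, overlapping, a log2 difference of -0.68 ± 0.06 (adjusted p = 7.45e-14). Stard4, a cytosolic sterol carrier, ran at 19.6, 25.9 and 34.1 CPM in cortex and 7.22, 15.3 and 21.8 CPM in outer medulla, a difference of -0.76 ± 0.07 (7.43e-15) with a small overlap. Acat2 (acetoacetyl-CoA thiolase), Acly, Nsdhl, Fdft1, Ebp (a sterol isomerase) and Srebf1 were also higher in cortex, by 0.55 to 0.11 as negative log2 differences.

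The Srebf1 difference of -0.24 ± 0.08 (adjusted p = 0.0038) ended as a call without the replicate 3 libraries (-0.16, adjusted p = 0.0684), and was -0.09 (adjusted p = 0.101) without the NOX4 HS7 libraries of replicates 3 and 4 and -0.18 (adjusted p = 0.103) without the low-complexity libraries. Mvd, Fdps, Lss, Dhcr7, Acss2, Acaca and Scd were not called between tissues.

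Between strains, more members were higher in NOX4 outer medulla and more were lower in NOX4 cortex. In outer medulla, averaged over the 3 diets, 11 members were higher in NOX4 and 1, Acaca, was lower, 12 of 29, where the background was 30.4% of genes (15.4% up and 15.1% down). The median member was 0.22 higher in NOX4, against -0.02 over all genes. Of the 18 enzymes of cholesterol synthesis, 9 were called higher and 0 lower, and 14 had a log2 fold change above 0. Cell markers also differed between strains in outer medulla. Summed markers of proximal tubule segments 1 and 2 at LS were 238 to 1251 CPM in SS and 1224 to 5013 CPM in NOX4. At HS21 they were 405 to 2756 and 1419 to 4480 CPM, and at HS7 461 to 10328 and 1477 to 5949 CPM. The part of cell mix in the strain results of either tissue was not tested.

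Tm7sf2 gave the smallest p. At LS its CPM were 25.8, 26.7, 23.6, 26.4 and 20.9 in SS outer medulla and 50.5, 52.3, 38.4, 45.5 and 43.7 in NOX4. Every NOX4 library was above every SS library, a log2 fold change of 0.90 ± 0.14 (adjusted p = 0.000264). Averaged over diets it was 0.56 ± 0.08 (1.67e-05), and all 15 NOX4 libraries were above the SS mean. At HS7 the strains overlapped, with 28.6, 25.2, 34.2, 38.8 and 39.8 CPM in SS and 48.3, 42.1, 41.7, 34.9 and 43.7 CPM in NOX4. At HS21 the SS values were 35.9, 35.0, 27.2, 25.7 and 34.2 CPM and the NOX4 values 35.9, 45.8, 36.0, 46.6 and 50.3 CPM, with the lowest NOX4 library about level with the highest SS library.

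Fdft1, the enzyme that commits farnesyl diphosphate to sterols, stood at 122, 105, 105, 101 and 99.8 CPM in SS outer medulla at LS and at 132, 150, 189, 152 and 167 CPM in NOX4, without overlap. At HS21 it stood at 104, 86.9, 82.4, 85.1 and 109 CPM in SS and 147, 176, 135, 134 and 165 CPM in NOX4, again without overlap. The log2 fold change was 0.57 ± 0.14 at LS (adjusted p = 0.00809), 0.70 ± 0.14 at HS21 (0.00921) and 0.42 ± 0.08 averaged over diets (0.000345). At HS7 the strains overlapped, SS at 121, 97.1, 181, 122 and 131 CPM and NOX4 at 149, 130, 106, 111 and 151 CPM.

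Ebp, which shifts a double bond in the sterol ring, stood at 27.7, 26.4, 23.4, 27.9 and 21.6 CPM in SS outer medulla at LS and 29.1, 32.5, 31.3, 34.7 and 29.9 CPM in NOX4. At HS7 SS stood at 24.7, 25.5, 29.4, 25.4 and 27.3 CPM and NOX4 at 31.2, 31.5, 37.1, 37.3 and 30 CPM. At HS21 SS stood at 31.4, 27.8, 24.3, 26.6 and 28.6 CPM and NOX4 at 33.5, 31.6, 31.9, 33.9 and 34.9 CPM. The strains did not overlap at any of the 3 diets. The log2 fold change averaged over diets was 0.30 ± 0.05 (adjusted p = 0.000194).

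Srebf1, the regulator best known for fatty acid genes, stood at 61.2, 64.1, 53.3, 63.2 and 62.7 CPM in SS outer medulla at LS and at 88.7, 88.0, 107, 102 and 89.0 CPM in NOX4. These groups did not overlap, and the log2 fold change was 0.64 ± 0.14 (adjusted p = 0.00354). Averaged over diets it was 0.42 ± 0.08 (0.000319), with overlap at HS7 and HS21. Srebf2 was not called (-0.12 in the average).

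**Figure D2:**
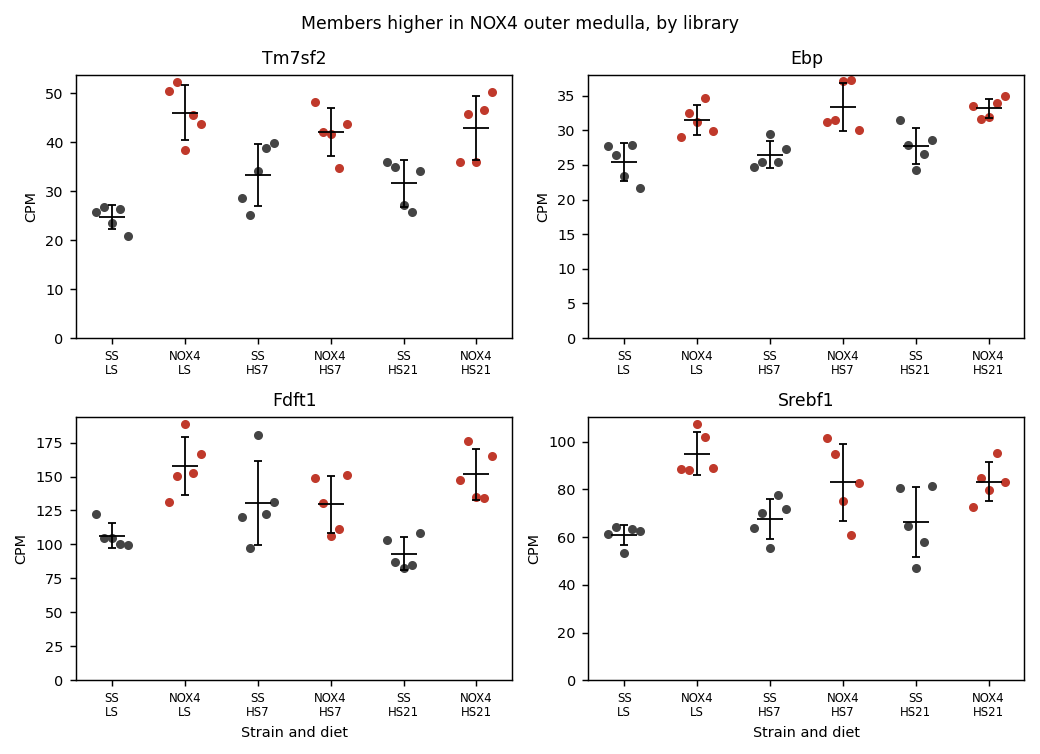
CPM (y axis) of Tm7sf2, Ebp, Fdft1 and Srebf1 in each outer medulla library, by strain and diet (x axis), SS in grey and NOX4 in red, with bars for the mean and 1 SD of 5 libraries. At LS all 5 NOX4 points lie above all 5 SS points in each of the 4 panels.

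The others called higher in the average over diets were Dhcr7 and Acss2, given below, Fdps (farnesyl diphosphate synthase) at 0.22 ± 0.06 (adjusted p = 0.00909), Mvd (mevalonate diphosphate decarboxylase) at 0.34 ± 0.11 (0.0195), and Hsd17b7, Mvk and Acat2 between 0.28 and 0.43. The lower member, Acaca (acetyl-CoA carboxylase), differed by -0.38 ± 0.14 (0.0446). Its lowest values were the NOX4 HS7 libraries of replicates 3 and 4, at 8.6 and 9.59 CPM beside 28, 26.5 and 25.3 CPM. The call was kept in 12 of 30 fits that each left out 1 library (highest adjusted p 0.0883), and ended without these 2 libraries (-0.23, adjusted p = 0.0791). With them left out, 12 members were called higher and 0 lower.

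By diet, 8 members were called higher and 0 lower in NOX4 outer medulla at LS (background 14.8% of genes, 8.80% up and 6.05% down), 1 higher and 1 lower at HS7 (9.61%, 5.23% up and 4.39% down) and 1 higher at HS21 (1.63%, 0.304% up and 1.33% down). At LS these were Tm7sf2, Srebf1, Fdft1, Mvk (0.57 ± 0.17), Dhcr7, Acss2, Ebp and Acat2 (0.83 ± 0.26). Without the low-complexity libraries, which are 3 of the 5 SS libraries at LS, 3 were called at LS and 5 at HS21, and a fit of the compared groups alone called 5 and 7. Leaving out SS LS replicate 3, which is low-complexity, left 3 calls, leaving out NOX4 LS replicate 2 left 4 and leaving out NOX4 LS replicate 3 left 5. Over the fits at LS that left out 1 library, genes called over all ran from 1229 to 2338.

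At HS7 the called members were Ebp (0.34 ± 0.09) and Stard4. Stard4 stood at 25.5, 21.0, 12.3, 18.9 and 21.9 CPM in SS and 16.5, 17.7, 8, 8.16 and 14.1 CPM in NOX4, overlapping, a log2 fold change of -0.62 ± 0.20 (adjusted p = 0.049). Without NOX4 HS7 replicates 3 and 4 the count of members called at HS7 was 0. With 1 library left out at a time the count of members ran from 0 to 7. Genes called over all ran from 367 to 3409 in the same fits, against 1519 of 15799 in the full fit. The count of members was 0 without SS replicate 2 and without NOX4 replicate 3 or 4, 1 without SS replicate 1 or 4, 4 without NOX4 replicate 1, 5 without NOX4 replicate 5 and 7 without SS replicate 3.

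In cortex, averaged over diets, 3 members were higher in NOX4 and 8 were lower, 11 of 27, where the background was 31.7% of genes (16.7% up and 15% down). With DESeq2's size factors the split was 1 higher and 8 lower. The median member was at -0.03, against 0.00 over all genes. Sterol enzymes made up 6 of the lower and all 3 of the higher calls, and the other 2 lower calls were Acss2 and Fasn.

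Idi1, which makes the reactive isoprenoid unit, stood at 28.8, 24.0, 36.0, 27.8 and 26.2 CPM in SS cortex at LS and at 16.8, 22.3, 23.8, 18.1 and 19.7 CPM in NOX4. The groups did not overlap, although the nearest values were 24.0 and 23.8 CPM, and the log2 fold change was -0.50 ± 0.18 (adjusted p = 0.0445). Averaged over diets it was also -0.50, ± 0.10 (0.000596), with all 15 NOX4 libraries below the SS mean. Sqle averaged -0.51 ± 0.13 (0.00291).

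Fasn, fatty acid synthase, averaged -0.18 ± 0.06 (adjusted p = 0.019), Hsd17b7 -0.44 ± 0.14 (0.0164), Sc5d -0.15 ± 0.05 (0.0266) and Hmgcs1 -0.19 ± 0.07 (0.0425). The higher members were Mvk at 0.33 ± 0.11 (0.0236), Ebp at 0.14 ± 0.05 (0.0316) and Mvd at 0.28 ± 0.11 (0.0476). With each of 30 libraries left out in turn, Mvd was called in 9 fits, Hmgcs1 in 15, Ebp in 24, Sc5d in 29 (all but the one without NOX4 HS21 replicate 4) and the other 7 in 30. Without the low-complexity libraries 6 members were called, 2 higher and 4 lower. Acss2, Idi1, Dhcr7 and Sqle were 4 of these 6, while Hsd17b7, Fasn, Mvk, Sc5d, Ebp, Hmgcs1 and Mvd were not. Hsd17b7 in SS LS cortex was 6, 9.01, 20.2, 9.10 and 7.06 CPM, where the high library is replicate 3, a low-complexity one, and NOX4 at LS was 6.64, 8.90, 6.33, 6.92 and 6.17 CPM.

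Acss2 and Dhcr7 differed between strains in opposite directions in the 2 tissues, at LS and averaged over diets. Acss2 in cortex at LS stood at 664, 696, 761, 654 and 489 CPM in SS and at 378, 241, 198, 248 and 262 CPM in NOX4. The groups did not overlap, and the log2 fold change was -1.30 ± 0.28 (adjusted p = 0.00143). Averaged over diets it was -0.91 ± 0.16 (7.87e-05).

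At HS7 the SS cortex values of Acss2 were 720, 650, 265, 273 and 227 CPM and the NOX4 values 178, 270, 236, 310 and 214 CPM. Replicates 1 and 2 of SS stood far above the other 3, which lay within the NOX4 range. At HS21 SS stood at 546, 461, 247, 314 and 251 CPM and NOX4 at 182, 231, 176, 341 and 250 CPM, overlapping.

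In outer medulla at LS, Acss2 stood at 319, 311, 117, 166 and 296 CPM in SS and 415, 831, 1265, 781 and 464 CPM in NOX4. These did not overlap, and the log2 fold change was 1.64 ± 0.48 (adjusted p = 0.0239), ending as a call without SS replicate 3 or 4 or NOX4 replicate 3 (highest adjusted p 0.0773). Averaged over diets it was 1.05 ± 0.27 (0.00505).

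At HS7 outer medulla Acss2 stood at 148, 199, 1536, 741 and 408 CPM in SS and 774, 868, 638, 530 and 1030 CPM in NOX4. At HS21 it stood at 289, 163, 188, 442 and 719 CPM in SS and 974, 679, 955, 941 and 546 CPM in NOX4. SS held the lowest libraries at both times, and at HS7 it also held the highest.

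Dhcr7, the reductase that makes cholesterol from its last precursor, stood at 59.8, 78.4, 78.3, 58.0 and 60.9 CPM in SS cortex at LS and 29.0, 46.0, 41.4, 38.8 and 36.1 CPM in NOX4, without overlap. The log2 fold change was -0.81 ± 0.22 (adjusted p = 0.008) and averaged -0.54 ± 0.13 over diets (0.00153). In outer medulla at LS the SS libraries stood at 36.2, 38.0, 24.8, 18.9 and 42.1 CPM and the NOX4 libraries at 27.7, 73.2, 104, 57.5 and 46.0 CPM. NOX4 replicate 1 lay within the SS range. The log2 fold change there was 0.95 ± 0.28 (0.0232) and averaged 0.73 ± 0.16 over diets (0.00133). At LS the call ended without SS replicate 3 or 4 or NOX4 replicate 2 or 3 (highest adjusted p 0.107). The call at LS also ended without the low-complexity libraries and in a fit of the compared groups alone.

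Between strains at LS, summed markers of proximal tubule segment 3 differed in the same direction as Acss2 and Dhcr7 in each tissue. The summed level of 8 such markers, of 8 found, was 3346 to 5064 CPM in SS LS cortex and 1277 to 2011 CPM in NOX4 LS cortex. In SS HS7 cortex it was 4559 and 3914 CPM in replicates 1 and 2, and 1820, 1724 and 1759 CPM in replicates 3, 4 and 5. In outer medulla at LS it was 710 to 2280 CPM in SS and 2006 to 7533 CPM in NOX4. SS HS7 outer medulla replicate 3, with the highest Acss2, had 6731 CPM of these markers and 10328 CPM of markers of proximal tubule segments 1 and 2, against 461 to 3542 CPM of the latter in the other 4. Dhcr7 in SS HS7 cortex replicates 1 to 5 was 62.7, 55.3, 30.7, 26.9 and 32.2 CPM, high where the segment 3 sum was high. In NOX4 HS7 cortex the segment 3 sum did not follow Dhcr7. Replicates 3 and 4 had the highest sums, 2362 and 2529 CPM, with Dhcr7 at 31.6 and 27.2 CPM. Replicate 2 had a sum of 1767 CPM and the highest Dhcr7, 51.9 CPM.

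Of the 8 segment 3 markers, 5 were called lower in NOX4 in the cortex average and 0 higher; in outer medulla 5 were called higher and 1, Cyp7b1, lower. Slc7a13, a transporter that marks segment 3, averaged 2147 CPM in SS LS cortex and 264 CPM in NOX4 LS cortex, so this 1 gene made up a large part of the difference in the sum there. The part of these markers in the results for Acss2 and Dhcr7 was not tested.

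**Figure D3:**
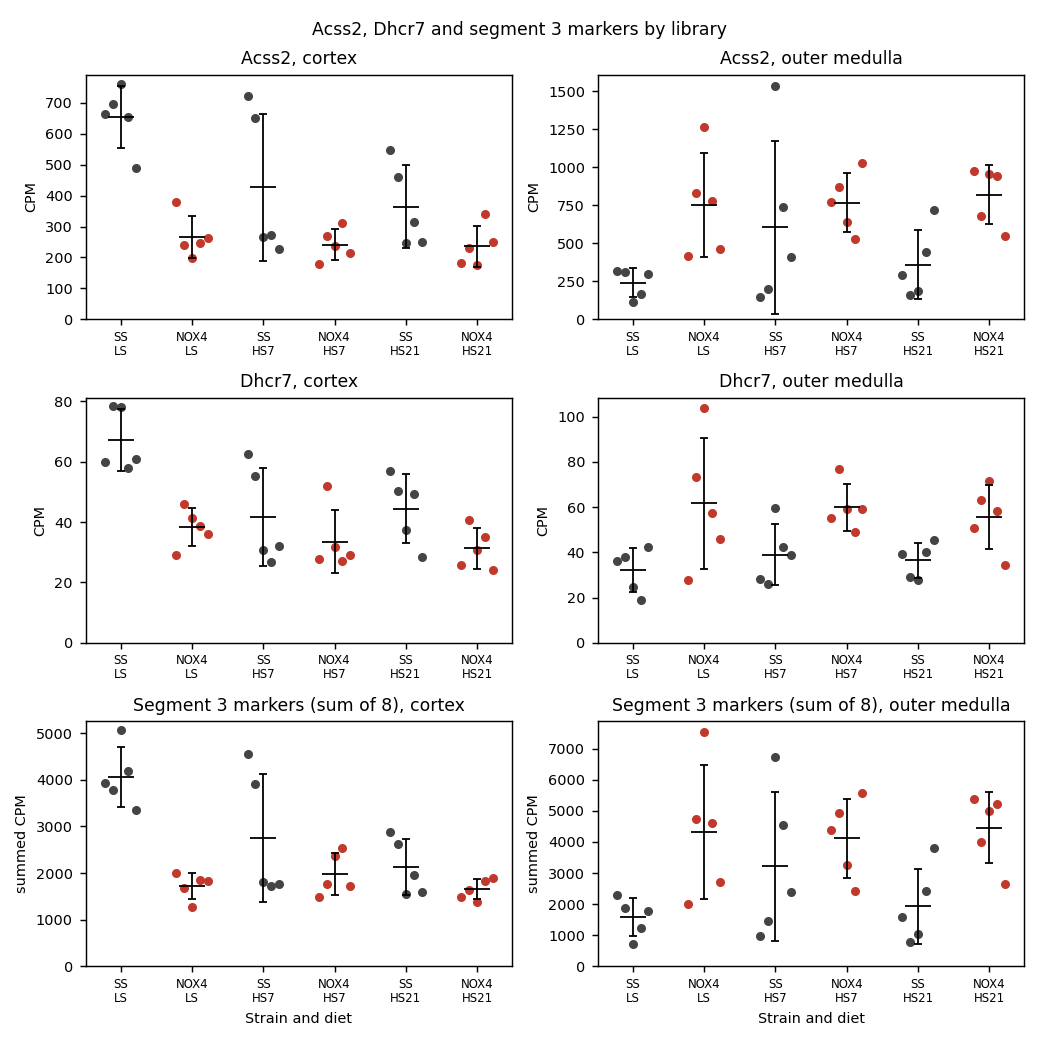
CPM (y axis) of Acss2, Dhcr7 and the summed 8 segment 3 markers in each library, by strain and diet (x axis), cortex left and outer medulla right, SS in grey and NOX4 in red, with bars for the mean and 1 SD of 5 libraries. The libraries highest for Acss2, such as SS HS7 cortex replicates 1 and 2 at 720 and 650 CPM, are also high for the markers.

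The difference between tissues in the strain effect was tested directly in the fit over 60 libraries. It was called for 6 members, all with NOX4 relatively higher in outer medulla, where the background was 11% of genes (7.52% up and 3.48% down). For Acss2 the log2 difference of effects was 1.98 ± 0.33 (adjusted p = 3.19e-05) and for Dhcr7 1.28 ± 0.21 (2.56e-05). Hsd17b7 gave 0.84 ± 0.19 (0.00148), Tm7sf2 0.54 ± 0.12 (0.00165), Sc5d 0.38 ± 0.13 (0.0422) and Fdft1 0.35 ± 0.11 (0.0256). Without the replicate 2 libraries Tm7sf2 was no longer called (highest adjusted p 0.0576), and Fdft1 and Sc5d each lost the call when any of 4 or 3 replicate numbers was left out (highest adjusted p 0.208 and 0.198).

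By diet in cortex, 5 members were called at LS (background 22% of genes, 11.7% up and 10.3% down), 1 higher and 4 lower: Acss2, Dhcr7, Fasn (-0.30 ± 0.10), Idi1 and, higher, Ebp (0.28 ± 0.09). Leaving out SS LS replicate 3 left 2 calls, and leaving out NOX4 LS replicate 2, 4 or 5 left 3. Over the fits at LS that left out 1 library, genes called over all ran from 2617 to 3453. Without the low-complexity libraries 1 call, Acss2, was left (-1.12, adjusted p = 0.038). At HS21 0 of 27 were called by edgeR (1.00% of genes, 0.336% up and 0.665% down), 4 at an unadjusted p under 0.05 and 0 by DESeq2. The smallest p values at HS21 were those of Scd (-2.82 ± 0.86, adjusted p = 0.117) and Dhcr7 (-0.50 ± 0.22, 0.346).

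Scd, which places the first double bond in fatty acids, was low in most libraries. In SS HS21 cortex it stood at 3.80, 2.98, 1.73, 16.2 and 1.47 CPM, and in NOX4 HS21 cortex at 0.267, 0.869, 0.578, 0.736 and 1.17 CPM. Replicate 4 of SS was far above the rest, and the groups did not overlap. In NOX4 at HS7, replicate 2 was the highest library in both tissues, at 12.3 CPM in cortex and 16.6 CPM in outer medulla.

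At HS7 in cortex, 6 members were called, 1 higher and 5 lower (17.4% of genes, 9.61% up and 7.77% down). Srebf1 stood at 64.6, 56.1, 60.4, 58.5 and 50 CPM in SS and at 71.0, 69.1, 199, 173 and 56.6 CPM in NOX4. Replicates 3 and 4 of NOX4 were far above all other libraries, and of the other 3, replicate 5 lay within the SS range and replicates 1 and 2 just above it. The log2 fold change was 0.97 ± 0.22 (adjusted p = 0.00354), and 0.18 (0.334) without those 2 libraries.

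The same 2 libraries were the lowest for several sterol enzymes. Idi1 stood at 24.6, 32.2, 20.9, 21.1 and 21.1 CPM in SS and 16.5, 18.2, 8.42, 8.32 and 16.1 CPM in NOX4, without overlap. Sqle stood at 43.6, 23.1, 19.7, 14.2 and 19.8 CPM in SS and 15, 14.1, 7.72, 10.4 and 14.5 CPM in NOX4, overlapping at the edge. Hmgcs1 stood at 50.4, 59.4, 40.6, 36.8 and 43.3 CPM in SS and 39.0, 35.5, 26.2, 28.2 and 35.4 CPM in NOX4, overlapping. NOX4 replicates 3 and 4 were the lowest for all 3 of these genes.

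The log2 fold changes at HS7 were -0.82 ± 0.18 for Idi1 (adjusted p = 0.00316), -0.96 ± 0.22 for Sqle (0.00383), -0.49 ± 0.12 for Hmgcs1 (0.00801), -0.38 ± 0.09 for Sc5d (0.00363) and -0.82 ± 0.28 for Acss2 (0.038). Without NOX4 replicates 3 and 4, 0 of 27 were called by edgeR, with Idi1 at -0.50 (0.0583) and Sqle at -0.72 (0.0636). In a fit of the 2 compared groups alone the count was also 0. The strain by salt interaction at HS7 was called for 0 members (0.0132% of genes, 0% up and 0.0132% down), with 4 at an unadjusted p under 0.05 and 1 by DESeq2. Srebf1 had the smallest p there (1.15 ± 0.31, adjusted p = 0.154), followed by Hmgcs1 (-0.47 ± 0.17, 0.252), and leaving out NOX4 HS7 replicate 5 gave 1 call.

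These 2 libraries carry library names out of the sequence of the other 3 in their group, and they also differed in other markers. Of 6 adrenal cortex markers 5 were found, and the sum took only those with a mean of at least 1 CPM over all libraries. These were Cyp11a1 and Cyp21a1. Their sum was 21.9 and 25.4 CPM in these 2 libraries, against 5.82 to 6.45 CPM in the other 3 of the group. Most of that sum was Cyp11a1, which starts steroid synthesis, with a mean of 12.9 CPM in NOX4 HS7 cortex and 4.26 CPM in SS HS7 cortex. Star and Cyp21a1 had means of 0.475 and 0.154 CPM in NOX4 and 0.647 and 0.586 CPM in SS, and neither was called. Cyp11b2, which defines aldosterone-making cells, was at most 0.0889 CPM in the group. The summed level of 8 macrophage markers was 108 and 113 CPM, against 201 to 309.8 CPM. In outer medulla the libraries with the same numbers had summed collecting duct markers of 4367 and 4962 CPM, against 1733 to 2708 CPM, and summed thick ascending limb markers of 5904 and 6429 CPM, against 13518 to 16798 CPM. They were low for Lss (17.1 and 13.5 CPM, against 32.8 to 41.2) and Sc5d (55.9 and 42.2 CPM, against 95.6 to 109). The part of these markers in the results was not tested.

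**Figure D4:**
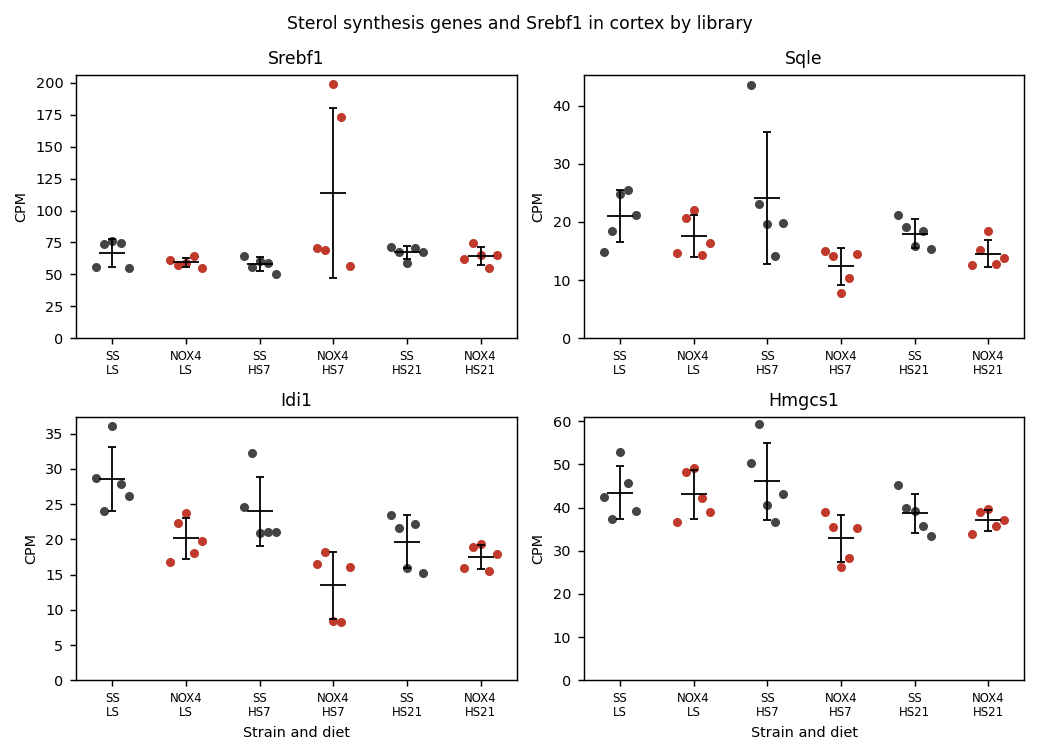
CPM (y axis) of Srebf1, Sqle, Idi1 and Hmgcs1 in each cortex library, by strain and diet (x axis), SS in grey and NOX4 in red, with bars for the mean and 1 SD of 5 libraries. In NOX4 at HS7, replicates 3 and 4 lie at 199 and 173 CPM for Srebf1 and at 8.42 and 8.32 CPM for Idi1, apart from the other 3.

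Salt was compared with the control diet within each strain. In SS cortex, 4 of 27 members were called at HS21 against LS, all lower (16.5% of genes, 8.42% up and 8.04% down). Nsdhl, a sterol dehydrogenase, stood at 26.6, 34.5, 28.8, 29.7 and 32.4 CPM at LS and 26.3, 24.3, 22, 25.5 and 23.8 CPM at HS21, where the highest HS21 library lay just under the lowest LS library, a log2 fold change of -0.32 ± 0.10 (adjusted p = 0.0306). Acss2 gave -0.84 ± 0.27 (0.0343), Hsd17b7 -0.74 ± 0.24 (0.0348) and Idi1 -0.54 ± 0.18 (0.0394). With 1 of 10 libraries left out, the Hsd17b7 call was kept in 6 fits (-0.88 to -0.34, highest adjusted p 0.254). It ended without HS21 replicate 3, 4 or 5 and without LS replicate 3, the low-complexity library at 20.2 CPM. Idi1 at HS21 was 23.5, 21.6, 16.0, 22.1 and 15.3 CPM, all under the 24.0 CPM that was lowest at LS. The summed segment 3 markers were 3346 to 5064 CPM in SS cortex at LS and 1560 to 2877 CPM at HS21, lower without overlap, and their part in the result for Acss2 was not tested.

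Without the low-complexity libraries the count in SS cortex at HS21 was 0. Leaving out 1 library gave 0 without HS21 replicate 3 or 5, 1 without HS21 replicate 4, and 2 without LS replicate 2, 3 or 4. Genes called over all ran from 1541 to 2703 when 1 library was left out. In SS cortex at HS7 0 of 27 were called by edgeR (2.25% of genes, 1.17% up and 1.07% down), 3 at an unadjusted p under 0.05 and 1 by DESeq2. Dhcr7 had the smallest p (-0.69 ± 0.22, adjusted p = 0.0744), then Fasn (-0.24 ± 0.10, 0.185), and leaving out HS7 replicate 1 or 2 gave 1 call.

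In SS outer medulla 0 of 29 were called at HS7 (2.37% of genes, 1.55% up and 0.817% down) and 0 at HS21 (9.86%, 5.29% up and 4.56% down), with 3 and 8 at an unadjusted p under 0.05 and 1 and 1 by DESeq2. Leaving out SS HS7 replicate 1 or 2 gave 2 calls at HS7, and leaving out HS21 replicate 1 gave 1 at HS21. The smallest p values were those of Tm7sf2 (0.44 ± 0.14, adjusted p = 0.0675) and Acss2 (1.33 ± 0.48, 0.101) at HS7, and of Srebf2 (-0.34 ± 0.12, 0.0713) and Tm7sf2 (0.36 ± 0.13, 0.0911) at HS21. Srebf2 was 180, 177, 163, 182 and 173 CPM at LS and 157, 160, 126, 126 and 120 CPM at HS21, which did not overlap.

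In NOX4, edgeR called 0 members at either time in either tissue, and 0% of all genes in each of these 4 comparisons. In cortex, 9 members at HS7 and 0 at HS21 had an unadjusted p under 0.05, and DESeq2 called 1 and 0. In outer medulla it was 6 and 1, and DESeq2 called 0 and 0. Leaving out NOX4 HS7 cortex replicate 1 or 5 gave 1 call at HS7.

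The smallest p values in NOX4 cortex were those of Srebf1 (0.94 ± 0.22, adjusted p = 0.262) and Srebf2 (-0.25 ± 0.08, 0.545) at HS7. In outer medulla Hmgcs1 stood at 93.0, 100, 83.7, 123 and 183 CPM at LS and 113, 51.0, 61.0, 57.6 and 81.1 CPM at HS7, overlapping (-0.68 ± 0.25, 0.248), and Srebf2 gave -0.32 ± 0.12 (0.262). At HS21 the smallest were Hmgcs1 (-0.22 ± 0.12) and Hsd17b7 (-0.35 ± 0.24) in cortex, and Elovl6 second row (2.58 ± 1.02) and Srebf2 (-0.22 ± 0.12) in outer medulla, with an adjusted p of 1 in each.

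The interaction of strain and salt was called for 0 members in the other comparisons too. In cortex at HS21 (1.08% of genes, 0.514% up and 0.567% down) 0 had an unadjusted p under 0.05, and Scd (-2.42 ± 1.20, adjusted p = 0.32) and Ebp (-0.23 ± 0.12, 0.349) came first. In outer medulla at HS7 (0% of all genes) and HS21 (0.0253%, 0.0127% up and 0.0127% down) it was 4 and 2, led by Fdft1 (-0.58 ± 0.19, 0.352) and Tm7sf2 (-0.56 ± 0.19, 0.352) at HS7 and by Tm7sf2 (-0.46 ± 0.19, 0.423) and Mvk (-0.48 ± 0.23, 0.529) at HS21. DESeq2 called 0 in these 3. The strain comparisons at LS and the salt comparisons of the same strain share the LS libraries.

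**Figure D5:**
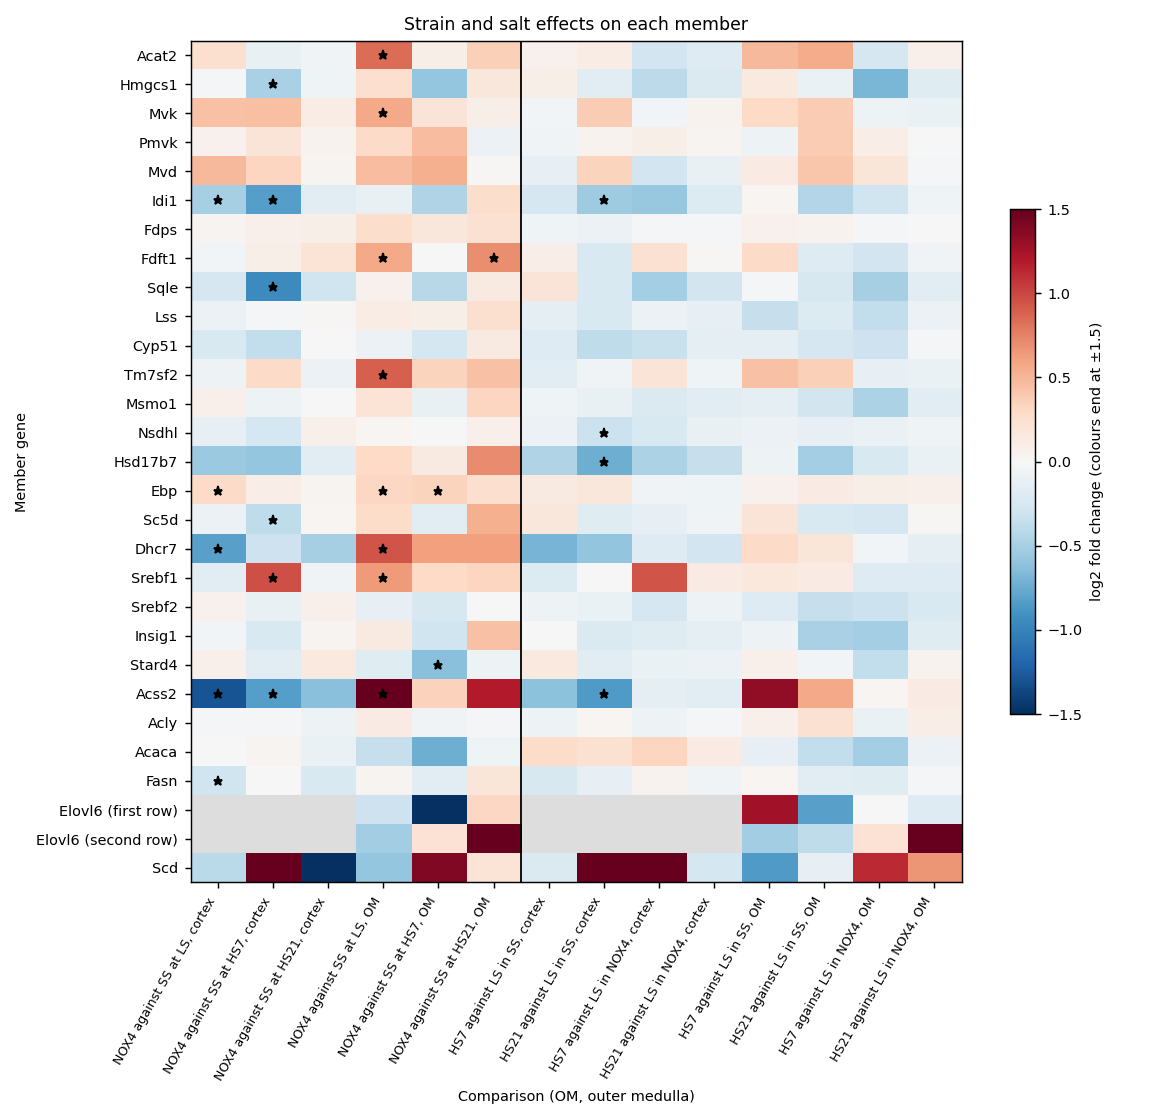
Log2 fold change (colour, red higher and blue lower, colours end at 1.5 either way) of each member (rows) in 6 strain and 8 salt comparisons (columns), with stars where the adjusted p is under 0.05 and light grey where a row was not tested. Stars stand in the strain columns other than HS21 in cortex, which holds 0, and in the HS21 column of SS cortex, and the 4 NOX4 salt columns hold 0.

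Other lipid genes were counted in 2 lists. Of 29 genes of sterol handling, 8 were called higher and 1 lower in NOX4 cortex averaged over diets, beside the 31.7% of all genes called there. They included Apoe (apolipoprotein E) at 0.80 ± 0.10 (adjusted p = 2.47e-06), Nr1h2 (a liver X receptor) at 0.27 ± 0.05 (0.0001) and Scap (the SREBP escort) at 0.21 ± 0.04 (0.000373). In outer medulla 3 were higher and 5 lower, beside 30.4% of all genes, among them Npc1 (sterol export from lysosomes) at -0.42 ± 0.08 (0.000368), Abca1 (sterol efflux) at -0.54 ± 0.11 (0.000745) and Stard3 at 0.20 ± 0.05 (0.00266).

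Of 27 tested genes, from a list of 29 with 28 found, of fatty acid and glycerolipid metabolism, 8 were higher and 5 lower in NOX4 cortex, beside 31.7% of all genes. Me1 (malic enzyme, a source of NADPH) gave -0.60 ± 0.09 (adjusted p = 9.72e-06), Hsd17b12 -0.40 ± 0.07 (4.08e-05) and Mlxipl (the carbohydrate response factor ChREBP) -0.43 ± 0.08 (0.000183). In outer medulla 8 were higher and 3 lower, beside 30.4% of all genes, with Dgat1 (triglyceride synthesis) at 0.38 ± 0.07 (0.000185), Mcat at 0.41 ± 0.07 (0.000211) and Acsl4 at -0.36 ± 0.07 (0.000608). The strain effect differed between tissues for Me1 (1.24 ± 0.23, adjusted p = 0.000132), Hsd17b12 (0.65 ± 0.12, 0.000112), Pnpla3 (1.48 ± 0.33, 0.00163) and, the other way, Apoe (-0.99 ± 0.16, 1.79e-05).

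Between tissues, 11 of 29 sterol handling genes were higher in outer medulla and 10 in cortex, beside 71.6% of all genes called in either direction. Ch25h, cholesterol hydroxylase, was higher in outer medulla by 2.19 ± 0.09 (adjusted p = 1.07e-27), while Apoe (-1.68 ± 0.08) and Lipa, lysosomal acid lipase (-0.84 ± 0.05), were higher in cortex. Of the fatty acid genes 10 were higher in outer medulla and 14 in cortex, with the desaturases Fads2 (-2.08 ± 0.09) and Fads1 (-1.05 ± 0.06) higher in cortex and Agpat2 (1.12 ± 0.06) higher in outer medulla. In SS cortex at HS21 against LS, 5 sterol handling genes were higher and 1 lower, beside 16.5% of all genes, led by the sterol exporter Abcg1 (1.02 ± 0.18, adjusted p = 0.000582).

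In the authors' deposited table, which compares 2 groups at a time, 8 of 29 member rows had an adjusted p under 0.05 for strain in outer medulla at LS, 0 at HS7 and 10 at HS21, all higher in NOX4. The share of all genes under 0.05 in the authors' deposited table was 17.1%, 1.1% and 25.6% there. For cortex the authors' deposited table gave 4 at LS, 4 at HS7 and 2 at HS21, all lower in NOX4, with 16.6%, 7.1% and 9.38% of all genes. For SS cortex at HS21 against LS the authors' deposited table gave 6, all lower, with 15.1% of all genes.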

How the data were processed

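PolyA RNA libraries of 60 kidney samples were compared in 12 groups of 5. Per the submitters' processing notes the tools were HISAT2 2.0.5, StringTie 1.3.3b and featureCounts 1.5.0-p3, and the genome build and annotation release are not given in the sources used here. The deposited table holds raw counts per gene, which the authors did not normalize. The authors also deposited FPKM values, not used in any test here, and a table of comparisons with log2 fold changes and adjusted p-values, from which counts of members are copied and named as theirs.

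The 28 members and all lists of other genes were chosen with earlier results of these data known. Counts were fitted in R 4.3.3 with edgeR 4.0.16 (filterByExpr by group, TMM scaling, quasi-likelihood F test, 2-sided, Benjamini-Hochberg adjustment over all genes tested, called at an adjusted p under 0.05). The 30 libraries of a tissue shared 1 fit with 1 coefficient per group. Comparisons between tissues used all 60 libraries. SE is the log2 fold change over the square root of F. The procedure was tested on simulated data. DESeq2 1.42.0, its size factors, no low-count filter, a replicate block, the compared groups alone, the low-complexity libraries left out and each library left out were the alternatives. A library was called low-complexity when under 16500 genes were expected at 10 M counts. Marker sums took only markers with a mean of at least 1 CPM over all libraries. Leaving out NOX4 HS7 replicates 3 and 4 together was chosen after seeing the data.

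Called members were named in each comparison, and where 0 were called, the 2 with the smallest p. The SE and p-values rest on the spread between libraries. Totals of 11.5 M to 29.6 M counts, without molecular identifiers, bear on counting error only. Promoters came from RefSeq build GRCr8, not the build of the counts.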

Additional observations from a re-analysis of the deposited data

Results flagged for a closer look

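In groups of 5 libraries, 1 library stood apart from the other 4 (Dixon's criterion, critical value 0.71) in 24 of 324 sets of 1 gene in 1 group, where chance gives about 1 in 20, or 16.2. All values here are CPM.

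In SS at LS, Hsd17b7 was 20.21 in cortex replicate 3 (others 6.003 to 9.095) and Mvd was 5.763 in cortex replicate 4 (others 10.54 to 12.07). In SS LS outer medulla, Mvd was 5.017 in replicate 2 (others 13.42 to 14.29), Fdft1 was 122.2 in replicate 1 (others 99.75 to 105.1) and Srebf1 was 53.3 in replicate 3 (others 61.16 to 64.08). The second Elovl6 row was 0.125 in SS LS cortex replicate 5, with the others at 0, and 0.9491 in SS LS outer medulla replicate 3 (others up to 0.2132). In SS HS7 outer medulla replicate 1 the first Elovl6 row was 7.492 (others 0.2228 to 1.198).

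SS HS21 outer medulla replicate 1 was the high library for 3 members: Idi1 at 46.27 (others 27.44 to 31.23), Acat2 at 14.96 (others 8.615 to 10.25) and Mvd at 20.34 (others 14.03 to 15.56). In SS HS21 cortex, Stard4 was 23.11 in replicate 1 (others 19.26 to 20.14) and the first Elovl6 row was 1.277 in replicate 3 (others 0.1389 to 0.2262).

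In NOX4 LS outer medulla, replicate 1 was low for Idi1 at 26.98 (others 42.48 to 46.52) and for Hsd17b7 at 10.36 (others 17.01 to 17.67), and Srebf2 was 205.6 in replicate 5 (others 141.8 to 155.5). In NOX4 LS cortex replicate 2, Hsd17b7 was 8.895 (others 6.173 to 6.923). In NOX4 HS7 cortex, Dhcr7 was 51.93 in replicate 2 (others 27.18 to 31.65) and the second Elovl6 row was 0.1779 in replicate 5 (others up to 0.04508).

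In NOX4 HS21 cortex, Fasn was 83.1 in replicate 3 (others 86.34 to 87.12), Hsd17b7 was 4.756 in replicate 4 (others 5.478 to 5.736), and in replicate 5 Mvd was 11.21 (others 13.43 to 13.87) and the first Elovl6 row was 1.268 (others 0.05662 to 0.2004). In NOX4 HS21 outer medulla replicate 2, Mvd was 19.58 (others 14.65 to 15.7).

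The effect of strain differed between tissues, by the interaction in edgeR's fit over 60 libraries, for 6 members. The log2 difference was 1.9761 for Acss2, 1.2806 for Dhcr7, 0.84021 for Hsd17b7, 0.54211 for Tm7sf2, 0.38013 for Sc5d and 0.35458 for Fdft1.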

How the results depend on the processing

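Over 77 called pairs of member and comparison, 1352 alternative values kept direction and call, 208 kept the direction but lost the call, and 0 reversed. The cause of the changes below was not tested, except that fewer libraries or genes enter some fits by construction. Counts are of members called. Genes called over all also moved between refits, so a moved count, here or above, is not read as particular to the members.

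Without the low-complexity libraries, strain gave 6 in the cortex average, 1 in cortex at LS, 1 in cortex at HS21, 3 in outer medulla at LS and 5 in outer medulla at HS21, and SS at HS21 against LS gave 0 in cortex and 1 in outer medulla. With no filter on low counts, strain gave 3 in cortex at LS and 1 in outer medulla at HS7, and SS at HS21 against LS gave 1 in cortex. DESeq2's Wald test gave 1 in cortex for SS at HS7 against LS, for NOX4 at HS7 against LS and for the strain by salt interaction at HS7; in outer medulla it gave 4 for strain at HS7, 3 for strain at HS21, and 1 each for SS at HS7 and at HS21 against LS. Without NOX4 HS7 replicates 3 and 4, strain at HS7 gave 0 in cortex and 0 in outer medulla. The compared groups alone gave, for strain, 0 in cortex at HS7, 1 in cortex at HS21, and 5, 0 and 7 in outer medulla at LS, HS7 and HS21, and 1 for SS at HS21 against LS in outer medulla.

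With 1 library left out at a time, strain in cortex gave 2 to 6 at LS, and in outer medulla 3 to 9 at LS and 0 to 7 at HS7. Genes called over all ran, in that order, from 2617 to 3453, 1229 to 2338 and 367 to 3409. In cortex, SS at HS7 against LS gave 0 to 1, SS at HS21 against LS 0 to 5, NOX4 at HS7 against LS 0 to 1 and the interaction at HS7 0 to 1. Over all genes these were 190 to 819, 1541 to 2703, 0 to 13 and 1 to 27. In outer medulla, SS at HS7 against LS gave 0 to 2 and SS at HS21 against LS 0 to 1, with 70 to 1456 and 767 to 1505 over all genes.

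With the replicate number as a block, SS at HS7 against LS in cortex gave 1 member, in place of 0, and no other count moved by over 1.5 times. No pairing by number was seen: over 14022 genes, the mean correlation of same-numbered deviations was 0.0166 in cortex and -0.00481 in outer medulla, and 7 of 30 cortex libraries matched best the outer medulla library of their own number. Each was compared with the 5 outer medulla libraries of its strain and diet, so chance gives about 1 in 5. Cell markers vary widely between libraries of a group, so this check cannot show whether the 2 tissues came from the same rats. The main fit over both tissues took the 60 libraries as independent.

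Members at low counts, such as Scd and the Elovl6 rows, are the least precise, and 0 calls in NOX4 under salt do not show that values were alike. Strain and library order cannot be told apart.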
